A study of Mus musculus with 4 samples.

Results

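A group of 2437 open chromatin regions in multipotent progenitors was found in all 4 ATAC-seq libraries but ranked higher in both T2 libraries than in both T1 libraries. ATAC-seq uses a transposase to insert sequencing adapters into accessible DNA. The cells were MPP3, a granulocyte- and monocyte-biased multipotent progenitor, sorted from the bone marrow of mice 3 months of age. All 4 libraries came from WT-iMOS mice, with genotypes given as WTiMOS_T1 and WTiMOS_T2 and 2 libraries of each. The meaning of T1 and T2 is left unexplained in the labels, as are the names WG and MG that the T1 and T2 peaks carry. The labels tie no replicate to an animal, so the spread between replicates may be technical. Peaks of the 4 deposited lists sharing 1 bp or more were joined into 77914 regions on chromosomes 1 to 19, X and Y of build mm10, of which 44274 had a peak in every library. Within each library the authors' −log10 q, the significance of a peak over its local background, was turned into a rank percentile among all peaks of that library (100 for the strongest), and each region took its best peak. The 2437 regions were selected on these percentiles, as those whose lower T2 percentile exceeded the higher T1 percentile by at least 15 points, a difference called the gap below. They made up 5.50% of the shared regions, and 647 shared regions (1.46%) had a gap of that size in the opposite direction. Because the ranks of all 4 libraries chose the members, their percentiles, fold values and widths are given as a description, with no test.

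Open chromatin in progenitors marks promoters and distal regulatory elements, and accessibility at elements of alternative lineages before commitment is a known feature of multipotent cells. The series concerns BCL11A, a zinc-finger repressor that acts with the NuRD complex, keeps fetal globin genes silent in erythroid cells and is needed for lymphoid development. A region gaining rank means that its peak stands higher among all peaks of the same library. It is not a count of reads or cells, and in sorted bulk cells fewer open cells and less opening per cell cannot be told apart.

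The sequences that can be shown are those of members lying on a start site. RefSeq's promoter table for GRCm38.p6, the assembly that mm10 names, lists a start site for 17492 of 21887 protein-coding genes, and 187 members contained at least 1. The 250 bases before the start site are printed for the members of this kind with the largest gaps, at Nr0b2 and Cfap126, and for those at a start site of a gene in the lists described below (Mllt3, Mecom, Emcn and Krt18). Capitals mark matches, on either strand, to short motifs: AGGNGGC for the core of the CTCF site, AGATAA for GATA factors and TGACCA for BCL11A.
Nr0b2, chr4:133553126-133553375, plus strand: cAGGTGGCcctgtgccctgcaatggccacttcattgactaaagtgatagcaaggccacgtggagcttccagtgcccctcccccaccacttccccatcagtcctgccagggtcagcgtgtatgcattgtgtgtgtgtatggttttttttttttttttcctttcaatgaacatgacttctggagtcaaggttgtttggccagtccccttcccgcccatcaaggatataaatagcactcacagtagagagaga
Cfap126, chr1:171113736-171113985, plus strand: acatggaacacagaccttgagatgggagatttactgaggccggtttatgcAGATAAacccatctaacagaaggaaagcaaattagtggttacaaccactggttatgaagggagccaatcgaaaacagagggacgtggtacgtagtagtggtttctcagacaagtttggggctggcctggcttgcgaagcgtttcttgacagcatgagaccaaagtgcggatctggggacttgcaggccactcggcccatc
Mllt3, chr4:87806324-87806573, minus strand: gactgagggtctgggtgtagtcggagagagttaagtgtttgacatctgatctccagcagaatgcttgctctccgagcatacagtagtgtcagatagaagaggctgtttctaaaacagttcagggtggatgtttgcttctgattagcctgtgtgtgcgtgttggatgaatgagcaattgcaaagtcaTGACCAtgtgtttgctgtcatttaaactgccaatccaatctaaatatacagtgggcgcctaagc
Mecom, chr3:30013205-30013454, minus strand: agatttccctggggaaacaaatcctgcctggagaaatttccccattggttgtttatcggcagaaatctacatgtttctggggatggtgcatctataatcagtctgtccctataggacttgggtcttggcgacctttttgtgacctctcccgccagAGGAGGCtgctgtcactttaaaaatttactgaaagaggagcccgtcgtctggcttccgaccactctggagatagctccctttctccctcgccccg
Emcn, chr3:137340828-137341077, plus strand: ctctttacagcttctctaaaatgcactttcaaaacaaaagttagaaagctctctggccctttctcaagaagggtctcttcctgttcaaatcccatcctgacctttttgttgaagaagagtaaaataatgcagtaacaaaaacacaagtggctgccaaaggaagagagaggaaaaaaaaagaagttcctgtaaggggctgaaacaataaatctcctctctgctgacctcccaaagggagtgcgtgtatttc
Krt18, chr15:102027966-102028215, plus strand: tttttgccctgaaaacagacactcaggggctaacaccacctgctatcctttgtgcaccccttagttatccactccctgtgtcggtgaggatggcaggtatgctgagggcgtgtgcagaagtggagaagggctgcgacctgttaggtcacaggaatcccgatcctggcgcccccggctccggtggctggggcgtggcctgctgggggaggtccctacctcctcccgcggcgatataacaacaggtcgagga
The Nr0b2 sequence matched the CTCF core, as did that of Mecom, the Cfap126 sequence matched the GATA motif and the Mllt3 sequence matched TGACCA. The Emcn and Krt18 sequences held no match to the 9 motif families searched.

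The member on the Nr0b2 start site had the largest gap of all, 61.7 points. Nr0b2 encodes an orphan nuclear receptor that lacks a DNA-binding domain and represses other nuclear receptors. The region, chr4:133553015-133553933, had a percentile of 0.887 in the first T1 replicate and 7.20 in the second, and of 70.2 and 68.9 in those of T2. Its −log10 q was 3.07 and 5.18 in T1 and 45.5 and 38.8 in T2. The peak was thus among the weakest of each T1 list and in the upper part of each T2 list. At the Mllt3 start site (chr4:87806274-87806855) the percentiles were 11.5 and 15.1 in T1 and 63.4 and 53.0 in T2, a gap of 37.9. Mllt3, a component of the super elongation complex, supports haematopoietic stem cell maintenance, and it is named outside the rule for named genes, after its values were seen. At the Mecom start site (chr3:30012835-30013483), which lies inside the gene, they were 22.7 and 20.2 against 51.4 and 45.0. At the Emcn start site (chr3:137340915-137341819) they were 8.23 and 3.91 against 38.9 and 40.8. Emcn encodes endomucin, a sialomucin of endothelial cells and of haematopoietic stem cells. In none of these regions did the T1 and T2 values overlap, as the rule requires.

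Among all members the median percentile was 31.3 and 28.8 in the T1 replicates and 60.1 and 58.9 in the T2 replicates, and the median gap was 19.7 points. The gap reached 20 points in 1168 members, 30 in 258 and 40 in 33. In the opposite direction it reached 20 points in 362 shared regions, 30 in 125 and 40 in 32. The excess of T2-higher regions was thus nearly absent at 40 points. The median difference between replicates over the members was 5.79 points in T1 and 4.18 in T2, beside 4.91 and 4.44 over all shared regions. The gap exceeded both replicate differences in 2237 members (91.8%, against 22.8% of all shared regions), a share that the threshold on the gap raises by itself. In T2 the members' fold over local background lay close to that of all shared regions, and in T1 it lay below. Their median fold over local background, the authors' value, was 10.4 and 10.5 in T2, beside 10.6 and 10.6 for all shared regions, and 6.94 and 6.87 in T1, beside 10.4 and 10.2. Both T2 folds exceeded both T1 folds in 2429 members (99.7%, against 25.4% of all shared regions), which follows from choosing on −log10 q of the same peaks. Both T2 peaks were wider than both T1 peaks in 1332 (54.7%, against 29.7% of all shared regions). The median peak width was 437 and 383 bp in T1 and 556 and 511 bp in T2. Over all shared regions it was 608 and 546 bp in T1 and 638 and 589 bp in T2. The median distance was 34 bp between T1 and T2 summits, 40 bp within the T1 pair and 22 bp within the T2 pair. Over all shared regions these distances were 28, 27 and 24 bp. Just inside the threshold lay regions near Rmdn2 (gap 15.003), Cmip (15.007) and P2rx7 (15.014), and just outside it regions near Chn2 (14.995), Unc119 (14.994) and Zfhx3 (14.989).

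**Figure D1:**
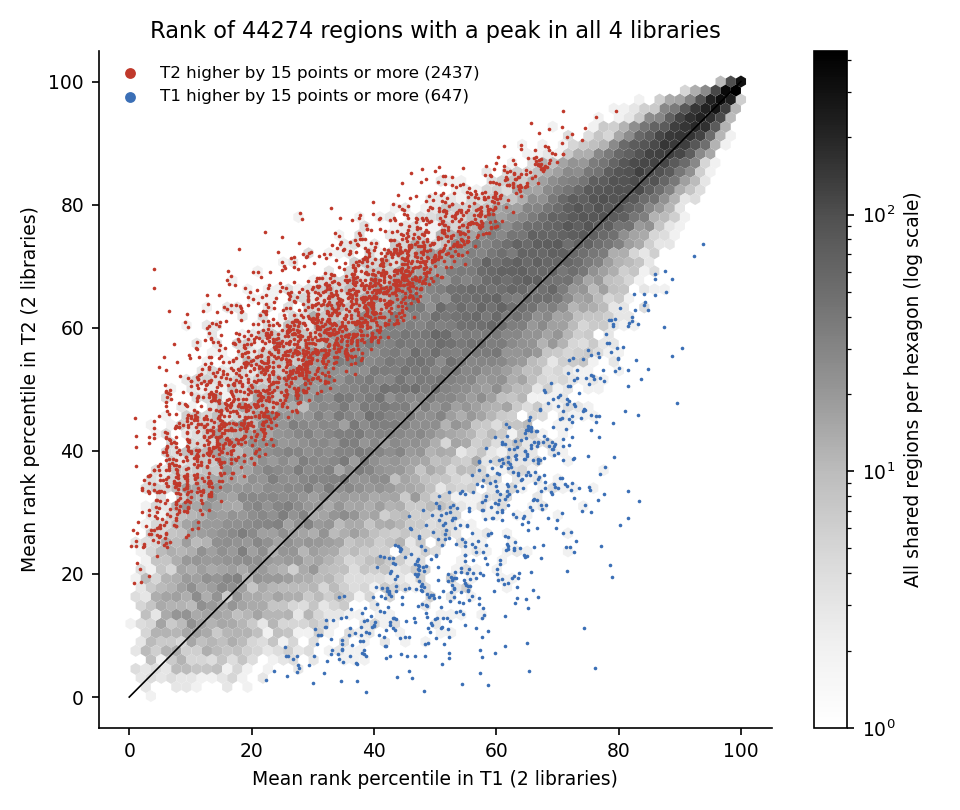
Mean rank percentile of each shared region in the 2 T1 libraries (x axis) and the 2 T2 libraries (y axis). Grey hexagons give the number of all 44274 shared regions on a log scale, red points the 2437 regions at least 15 points higher in T2, blue points the 647 at least 15 points higher in T1, and the line marks equal percentiles. Red points lie mainly between T1 percentiles of 0 and 60, and almost none lie near the strongest peaks at the upper right.

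The excess of T2-higher over T1-higher regions depends on what a peak is ranked against. The T2 lists were longer (66764 and 62704 peaks kept, against 58454 and 54045 in T1), and all shared regions had median percentiles of 61.7 and 58.5 in T1 and 66.4 and 64.1 in T2. When the best peaks were ranked among the 44274 shared regions alone, so that each library ranked the same number of items, 1278 regions were at least 15 points higher in T2 and 1466 in T1. T2-higher regions were then 46.6% of those called in either direction, against 79.0% with ranks among all peaks. With every list shortened to the 54045 peaks of the shortest, the numbers were 1042 and 1360, a share of 43.4%. In the ranking among shared regions 1209 of the 2437 members (49.6%) kept a gap of at least 15 points. All 2437 had a gap above 0 there (lowest 3.19, median 14.9). That ranking reorders the same −log10 q values, so members chosen on a gap of at least 15 points had little room to reverse. Their direction there is therefore no separate support.

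Of the 25 members with the largest gaps, taken at 1 per gene, 2 contained a start site (Nr0b2 and Cfap126) and 2 were near genes of the stem cell list (Tal1 and Cd34). Each region was paired with the protein-coding gene it overlaps, or else with the closest one up to 50 kb away. Tal1 encodes a basic helix-loop-helix factor required for blood stem cell formation. Its member, chr4:115052588-115052998, had its summit at -3678 bp from the listed start site and stood at 16.1 and 17.3 in T1 and at 63.3 and 61.8 in T2. Cd34 encodes a surface sialomucin of progenitor cells. Its member, chr1:194995063-194995686, lay 33771 bp beyond the gene and stood at 21.5 and 27.2 in T1 and at 73.1 and 71.7 in T2. In both regions the replicates of a group differed by less than 6 points while the gap was 44.5 points. Notch3, a Notch receptor, had a member 11536 bp from the gene (chr17:32108501-32109284) at 16.9 and 8.56 in T1 and 62.1 and 57.6 in T2. Il2ra, the alpha chain of the interleukin-2 receptor, had one inside the gene (chr2:11655148-11655740) at 3.70 and 6.15 in T1 and 58.4 and 48.9 in T2. Mta3, a subunit of the NuRD complex, had one 6463 bp from the gene (chr17:83699097-83699700) at 6.45 and 8.13 in T1 and 64.6 and 50.2 in T2. The gap at these 5 genes remained between 29.1 and 42.1 points with ranks among shared regions.

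The other genes with the largest gaps include splicing, kinase and cytoskeletal genes. Syf2, a splicing factor, was the nearest gene, at 44226 bp, of a member (chr4:134981763-134982500) at 0.887 and 7.20 in T1 and 66.5 and 66.5 in T2. Its T1 percentiles equal those of the Nr0b2 region because weak peaks share identical −log10 q values (59.9% to 66.0% of the peaks of a library share their value with another), and tied peaks took their mean rank. Stk24, a kinase of the STE20 family, had a member inside the gene (chr14:121318245-121318869) at 17.4 and 18.3 in T1 and 70.2 and 75.4 in T2. Rcan1, an inhibitor of calcineurin, had a member inside the gene (chr16:92443356-92444053) at 13.8 and 20.7 in T1 and 69.4 and 64.4 in T2. Septin9, a cytoskeletal GTPase, had a member inside the gene (chr11:117306592-117307181) at 33.1 and 35.8 in T1 and 77.0 and 78.6 in T2. The others of the 25 largest were near Sftpb, Abca4, Plekhg5, Sh3gl3, Rbm46, Cfap126, Prss29, Chpf2, Slc43a3, Slc22a16, Lhx2, Ptprm, Eps8l1, Trhr2 and Glg1, with gaps from 40.6 to 48.9 points. The Chpf2 member (chr5:24591214-24592833) also contained the hairpin of Mir671, and 3 members in all contained a microRNA hairpin, against 93 shared regions.

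**Figure D2:**
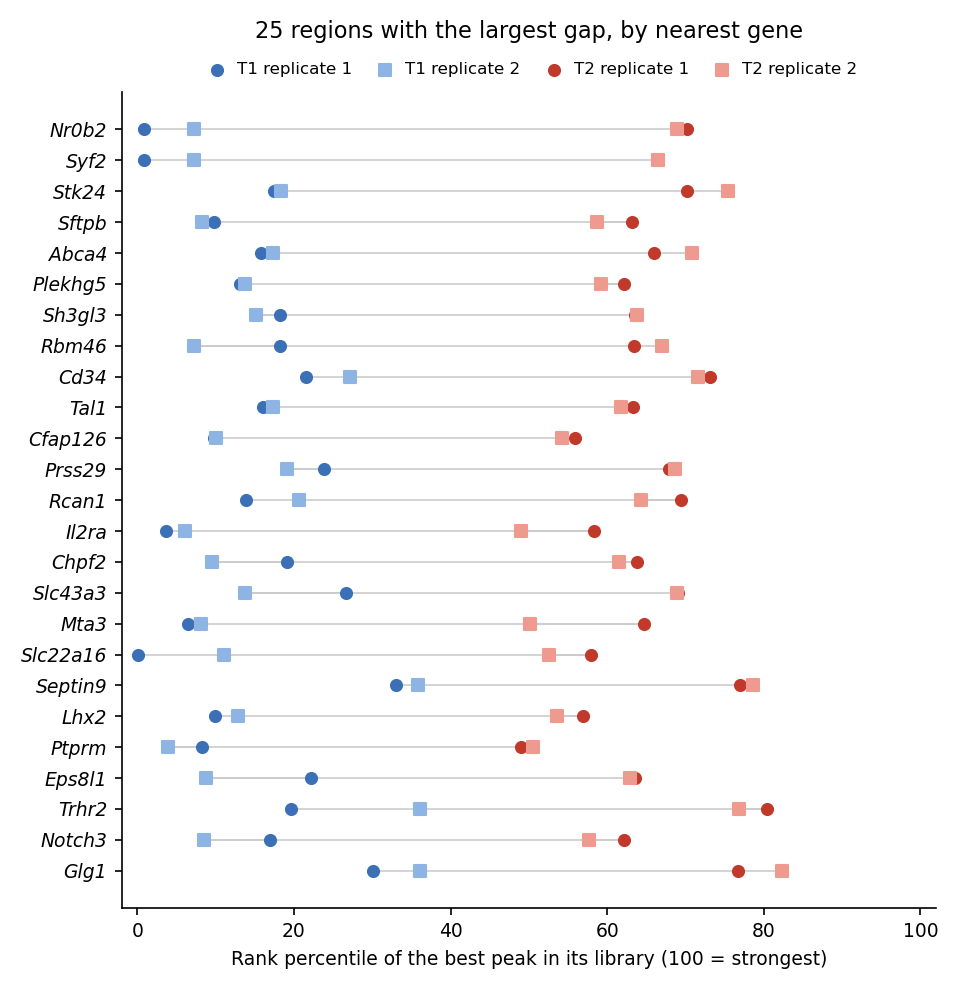
Rank percentile (x axis, 100 for the strongest peak of a library) of the 25 members with the largest gaps, 1 per gene, in each of the 4 libraries, T1 in blue and T2 in red, circles for replicate 1 and squares for replicate 2. All blue points lie at or below 36.1 and all red points at or above 48.9.

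At Bcl11a itself 2 of 13 shared regions were members. One, chr11:24077172-24078107, lies inside the gene within 1 kb of its upstream edge as the gene table gives it. Its summit is at -2733 bp from the listed start site. It stood at 44.8 and 27.9 in T1 and at 71.9 and 65.4 in T2. The other, chr11:24200190-24200928, lies 26632 bp beyond the gene and is a strong peak in every library, at 75.4 and 72.6 in T1 and 90.4 and 90.6 in T2. The region over the listed start site (chr11:24080632-24082023) was no member, at 65.8 and 59.4 in T1 and 61.5 and 61.8 in T2, so its T2 values lay within the T1 range. Of the 13 regions 6 had both T2 values above both T1 values and 1 had the reverse. Over all shared regions 40.6% had both T2 values above and 14.2% the reverse. The reverse region at Bcl11a (chr11:24076062-24076808) lies across the upstream edge of the gene, next to the first member. It stood at 72.4 and 69.8 in T1 and at 64.9 and 67.6 in T2. The gaps of the 2 members were 20.6 and 15.02 points, the second just inside the threshold. With ranks among shared regions they were 21.5 and 17.99 points.

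The share of members at gene ends was below that of shared regions as a whole, in a description with no test. A start site lay inside 187 members (7.67%, 95% Wilson interval 6.68 to 8.80) and inside 21.8% of all shared regions. Members within 1 kb of either end of a gene numbered 335 (13.7%, 12.4 to 15.2), against 29.1% of shared regions. Gene bodies without a start site held 51.6% of members (44.6% of shared regions), 707 members lay outside genes with one within 50 kb (24.8% of shared regions) and 11.7% of members lay farther away (8.82%). A start site lay inside 4.48% of the T1-higher regions. These intervals cover counting error only, and regions are not replicates.

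Part of this goes with rank, since a peak near the top of every list cannot gain 15 points. Start sites held 5609 of the 11596 regions with a mean percentile above 80, and 10 regions of that band were members. In the band from 40 to 60, members made up 7.80% of regions with a start site (95% Wilson interval 6.32 to 9.61) and 10.7% of those without (10.1 to 11.3). In the band from 20 to 40 the shares were 9.46% (7.46 to 11.9) and 10.5% (9.85 to 11.2), and from 60 to 80 they were 1.64% and 3.72%. Within these 3 bands the share was lower at start sites. From 0 to 20 it was 4.02% at start sites and 3.77% elsewhere. The bands are cut on the mean of the percentiles that chose the members, so these shares and intervals are a description, not a test. With ranks among shared regions 1.09% of regions with a start site and 3.39% of the others were T2-higher.

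**Figure D3:**
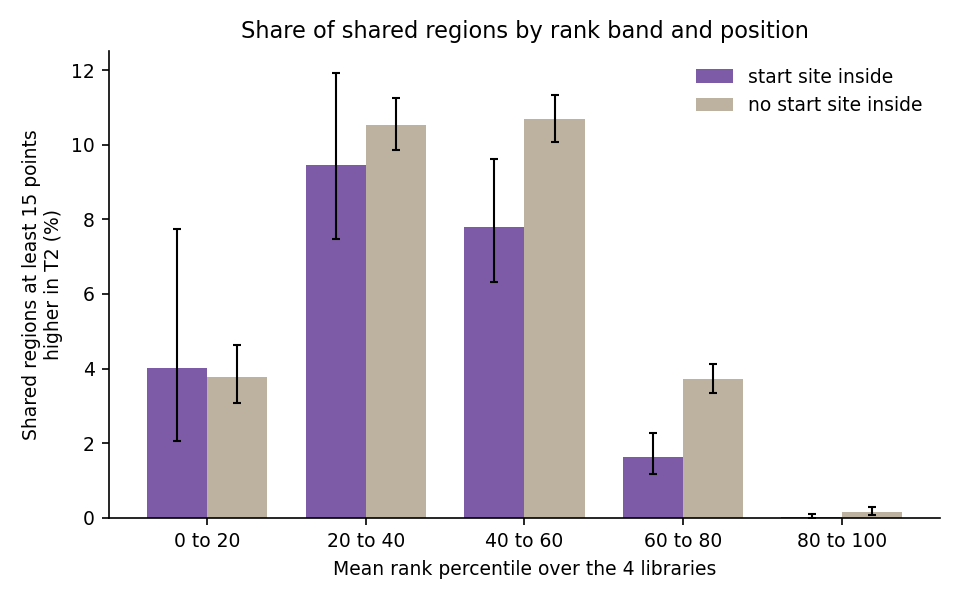
Share of shared regions that are at least 15 points higher in T2 (y axis, percent) by mean rank percentile over the 4 libraries (x axis), for regions with and without a listed start site inside. Bars start at 0 and error bars are 95% Wilson intervals. The shares are highest between 20 and 60 (7.80% to 10.7%) and lowest above 80 (0.0178% and 0.150%).

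Promoters at members had a lower median CpG observed-to-expected ratio (0.576) than those at all shared regions (0.783), again with no test. The median was 0.664 at shared regions with a mean percentile from 20 to 60. Of 205 listed promoters of 300 bases (250 before and 50 after the start) at members, 45.9% had a CpG observed-to-expected ratio above 0.6, against 76.4% of the 11747 at all shared regions and 58.7% of the 1898 at shared regions with a mean percentile from 20 to 60. The median GC content was 60.7%, 62.0% and 62.0%. Over all promoters of protein-coding genes the median CpG ratio was 0.567 and 47.6% were above 0.6, close to the values at members. TGACCA, searched on both strands, was in 35 promoters at members (17.1%, 95% Wilson interval 12.5 to 22.8), in 10.2% at all shared regions, in 9.64% in that band and in 12.5% of the 21263 promoters of protein-coding genes. TGTGGT or TGCGGT (RUNX) was in 26.8% (21.2 to 33.3), against 21.1% at all shared regions and 21.6% of all promoters. AGGAAGT (ETS) was in 9.76%, against 8.83% and 9.07%. The AGATAA motif of GATA factors was in 6.83%, against 5.35% and 9.65%, and the CTCF core in 42.9%, against 42.5% and 33.6%. TGANTCA (AP-1) was in 4.88%, against 4.16% and 6.99%, TTGCNNAA (CEBP) in 6.34%, against 7.52% and 10.2%, CAGCTG (E-box) in 17.1%, against 14.6% and 15.6%, and GAAANNGAA (IRF) in 8.29%, against 6.71% and 8.15%. Start sites of 1 gene can be close together, so these promoters are not all separate sequences, and a match is not a binding site. A RUNX match TGTGGT followed by CA also contains TGACCA on the other strand.

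Of the lists of genes, the stem cell and multipotency list had 12 members among 176 shared regions (6.82%, against 5.50% of all shared regions). It had 0 T1-higher regions, against only 1.46% of all shared regions. The median difference between the T2 and T1 mean percentiles was 6.95 points over all its shared regions, beside 3.15 over all shared regions of the genome. It was 7.92 for the neural and epithelial list, 6.52 for the erythroid, 6.05 for the mast cell and 5.48 for the endothelial list. Ranked among shared regions, the stem cell list held 11 T2-higher and 0 T1-higher regions (6.25% and 0%, against 2.89% and 3.31% of all shared regions). These 11 regions are not all members. The members lay at 10 genes. Tal1, Cd34, Mllt3 and 1 Mecom member are given above, and the other Mecom member (chr3:30233956-30234368) stood at 51.7 and 30.6 in T1 and 69.7 and 67.9 in T2. Other members were near Prdm16, Fgd5, Kit, Erg and Nr4a1, with gaps of 17.5, 17.2, 17.5, 17.4 and 33.9 points. With ranks among shared regions the gaps of the Kit and Erg members were 7.81 and 8.37 points, below the threshold.

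The lists of the myeloid programmes and of cytokine receptors held few members, and their 95% Wilson intervals include the 5.50% of all shared regions. The granulocyte and monocyte list had 4 members among 94 shared regions (4.26%, 1.67 to 10.4), near Irf8, Elane, Nfe2l2 and Lmo4. Irf8, a factor of monocytes and dendritic cells, had one 35861 bp beyond the gene (chr8:120792555-120793345) at 45.1 and 35.1 in T1 and 67.9 and 74.3 in T2. Elane encodes neutrophil elastase, and its member (chr10:79889309-79889701) stood at 48.3 and 46.7 in T1 and 66.2 and 66.4 in T2. In the ranking among shared regions this list had 2 T2-higher and 6 T1-higher regions (2.13% and 6.38%, against 2.89% and 3.31% of all shared regions). The mature neutrophil and macrophage list had 1 member among 32 (3.13%, 0.554 to 15.7), near Cxcr2, and the cytokine receptor and signalling list 3 among 117 (2.56%, 0.876 to 7.27), near Il7r, Jak2 and Kit. These lists had in that ranking 0 and 1 T2-higher regions (0% and 0.855%) and 3 and 8 T1-higher ones (9.38% and 6.84%). The adhesion and migration list had 4 members and 6 T1-higher regions among 112 (3.57% and 5.36%, against 5.50% and 1.46% of all shared regions). With ranks among shared regions it had 2 and 9 (1.79% and 8.04%).

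The erythroid list had the highest share, 9 members among 62 shared regions (14.5%, 95% Wilson interval 7.83 to 25.3, against 5.50% of all shared regions). Its share of T1-higher regions was also above that of all shared regions (3 regions, 4.84% against 1.46%). With ranks among shared regions it had 3 T2-higher and 4 T1-higher regions (4.84% and 6.45%, against 2.89% and 3.31% of all shared regions). Sptb, erythrocyte beta spectrin, had 3 members inside the gene among 8 shared regions, with gaps of 15.5, 17.5 and 15.2 points. Zfpm1, the GATA1 cofactor FOG1, had a member inside the gene (chr8:122309145-122309821) at 37.0 and 12.3 in T1 and 70.3 and 64.3 in T2. Rhag, the Rh-associated glycoprotein, had one 3802 bp from the gene (chr17:40806496-40807297) at 60.1 and 56.8 in T1 and 80.6 and 79.1 in T2. The remaining members were near Car2, Hemgn, Ank1 and Hbb-bt. With ranks among shared regions the gaps of the 3 Sptb members were 10.9, 13.1 and 15.4 points. The gap of the Car2 member was 11.5 points in that ranking, below the threshold. The Zfpm1 and Rhag members kept gaps of at least 15 points, with 22.5 points at Rhag. The Hbb-bt region is uncertain, because the beta globin genes hold near-identical copies. Peaks lay within 1 kb of a start site at 9 of 18 erythroid genes in each T1 library and at 11 and 10 in the T2 libraries, and the part of such cells in the result was not tested.

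Among genes of BCL11A partners and globin regulators there were 8 members among 124 shared regions (6.45%, against 5.50% of all shared regions). There were 0 T1-higher regions, against only 1.46% of all shared regions. In the ranking among shared regions there were 6 and 1 (4.84% and 0.806%, against 2.89% and 3.31% of all shared regions). Besides the 2 at Bcl11a, they lay at Igf2bp3, Nfia, Hmga2, Sox6, Nfix and Igf2bp2. Igf2bp3, an RNA-binding protein of fetal cells, had the largest gap of these (chr6:49175989-49176479, 11.5 and 11.1 in T1, 57.2 and 46.1 in T2). Hmga2, a chromatin protein of fetal stem cells, had a member inside the gene (chr10:120446154-120446745) at 31.3 and 11.1 in T1 and 53.6 and 53.3 in T2. Nfia, a nuclear factor I protein of erythroid cells, had 1 member among 22 shared regions (chr4:97894317-97894889), at 35.5 and 32.0 in T1 and 57.8 and 68.1 in T2.

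Lymphoid and dendritic genes had members at a few known regulators. In the early lymphoid and B lineage list 5 of 84 shared regions were members (5.95%). Ebf1, a B lineage factor, had 2 inside the gene, of which the stronger in T2 (chr11:44881181-44881695) stood at 30.7 and 19.2 in T1 and 61.6 and 71.6 in T2. Ciita, the activator of MHC class II genes, had one (chr16:10516071-10516675) at 5.12 and 1.46 in T1 and 41.9 and 42.5 in T2, and Pou2af1 and Il7r had 1 each. The dendritic cell list had 5 members among 75, including Zbtb46, H2-Aa and Id2, and the T and NK list 4 among 90 (Id2, Lat, Runx3 and Notch1). Mast cell, basophil and eosinophil genes had 3 of 42, with 2 near Ccr3, an eotaxin receptor, and 1 at Srgn. The megakaryocyte and platelet list had 2 of 67, near Thbs1 and Itgb3. The shares of these lists ran from 2.99% to 7.14%, on both sides of the 5.50% of all shared regions. With ranks among shared regions the early lymphoid, T and NK, dendritic, mast cell and megakaryocyte lists had 2, 1, 3, 1 and 3 T2-higher and 4, 4, 2, 2 and 2 T1-higher regions. These are shares of 1.11% to 4.48% T2-higher and 2.67% to 4.76% T1-higher, beside 2.89% and 3.31% of all shared regions.

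In signalling and factor lists the shares lay between 1.16% and 5.88%. The inflammatory and NF-kB list had 7 members among 119, with 2 each at Irak3, Traf1 and Traf3 and 1 near Nfkbia. In the ranking among shared regions it had 8 T2-higher and 4 T1-higher regions (6.72% and 3.36%, against 2.89% and 3.31% of all shared regions). Irak3, an inhibitor of Toll-like receptor signalling, had a member inside the gene (chr10:120168180-120168814) at 27.2 and 28.4 in T1 and 60.2 and 61.5 in T2. Traf1, a TNF receptor adaptor, had one inside the gene (chr2:34958079-34958967) at 19.2 and 20.6 in T1 and 62.4 and 52.2 in T2. The AP-1 and immediate early list had 7 of 149, with 1 each at Bach2, Nr4a1, Fos, Bach1, Fosl2, Batf and Ier3. Bach2, a repressor related to AP-1, had a member inside the gene (chr4:32337536-32338130) at 32.0 and 21.8 in T1 and 74.8 and 68.3 in T2. Nr4a1, an orphan nuclear receptor, had one (chr15:101262548-101262936) at 4.04 and 20.2 in T1 and 71.4 and 54.1 in T2. The RUNX, ETS and GATA list had 6 of 160, with 1 of 14 shared regions at Runx1 (chr16:92868480-92868853, 42406 bp from the gene), at 37.3 and 40.9 in T1 and 69.8 and 67.6 in T2. Notch and TGF-beta genes had 8 of 170, interferon genes 2 of 68, apoptosis genes 2 of 79, cell cycle genes 1 of 86 (E2f3) and housekeeping genes 1 of 42 (Rab7). In the ranking among shared regions the AP-1 list had 5 T2-higher and 5 T1-higher regions, the RUNX, ETS and GATA list 3 and 5, and the Notch and TGF-beta list 4 and 6. The interferon list had 2 and 3 in that ranking, the apoptosis list 2 and 2, the cell cycle list 1 and 3, and the housekeeping list 1 and 3. From the AP-1 to the housekeeping list the T2-higher shares ran from 1.16% to 3.36%, beside 2.89% of all shared regions. The T1-higher shares ran from 2.53% to 7.14%, beside 3.31%.

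Of the lists for cells that the sort should leave out, the endothelial list had 6 members among 51 shared regions (11.8%, 95% Wilson interval 5.51 to 23.4). It had 0 T1-higher regions. Of all shared regions 5.50% were members and only 1.46% were T1-higher. The endothelial members were 2 at Emcn and 1 each at Pecam1, Cldn5, Plvap and Sox18. Pecam1, an adhesion protein of endothelium that blood cells also carry, had one inside the gene (chr11:106714990-106715634) at 58.5 and 49.8 in T1 and 85.6 and 80.6 in T2. The list had 5 T2-higher and 0 T1-higher regions when ranked among shared regions (9.80% and 0%, against 2.89% and 3.31% of all shared regions). Peaks lay within 1 kb of a start site at 8 or 9 of the 9 endothelial genes with a listed start site in each library, at 7 in each T1 library and 9 and 10 in the T2 libraries of 14 neural and epithelial genes, and at all 15 housekeeping genes. Whether such cells take part in the result was not tested. The stromal list had 1 member among 55, near Ngfr, and the neural and epithelial list 1 among 35, at Krt18. When ranked among shared regions they had 0 and 1 T2-higher (0% and 2.86%) and 1 and 1 T1-higher regions (1.82% and 2.86%). Of the progenitor surface genes looked at, Kit, Cd48, Flt3, Cd34 and Fcgr3 had a start-site peak in all 4 libraries. Ly6a, which encodes Sca-1, has no listed start site and had no deposited peak in the gene in any library. These peaks do not measure surface protein, so they neither show nor exclude that the cells carry it.

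**Figure D4:**
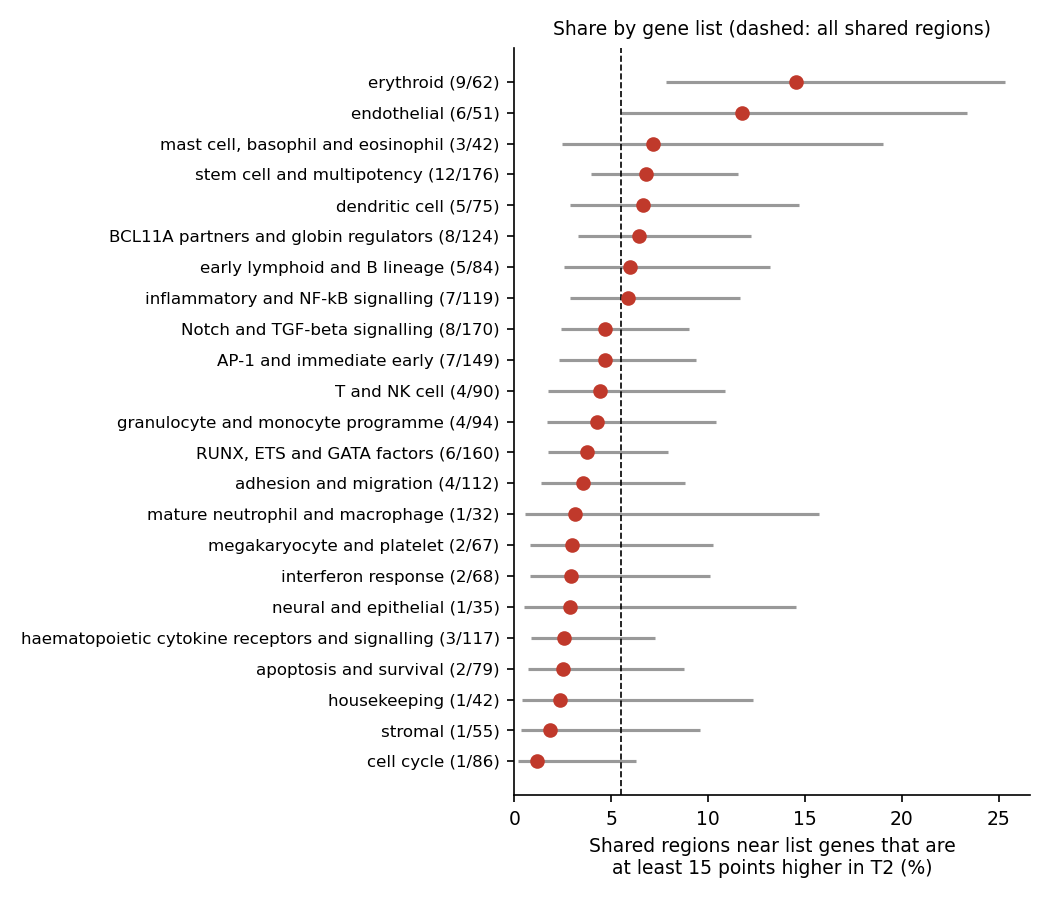
Share of the shared regions near the genes of each list that are at least 15 points higher in T2 (x axis, percent). Points give the share with the counts beside the list's name, lines the 95% Wilson interval, and the dashed line the 5.50% of all shared regions. Shares run from 1.16% for the cell cycle list to 14.5% for the erythroid list, and most intervals include the dashed line.

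Members were spread over 1890 genes, with 1 member at 1662 genes, 2 at 199, 3 at 25 and 4 at 4. Kcnd3, a potassium channel subunit, and Rgs8, a regulator of G protein signalling, had 4 of 9 shared regions each. The largest gap at Kcnd3 (chr3:105538483-105539344, inside the gene) was 14.9 and 15.1 in T1 and 50.5 and 53.6 in T2. At Rgs8 the largest gap (chr1:153641507-153641967) came with 24.7 and 23.3 in T1 and 52.6 and 63.7 in T2. Gse1 had 4 of 42, and it had 2 T1-higher regions too. Pard3b, a cell polarity protein, and Lmtk2, a membrane kinase, had 3 of 5 each, Slc49a4 had 3 of 6, B4galt5 3 of 11, Xxylt1 3 of 16, Tns1 3 of 19 and Septin9 3 of 22. These 10 genes were chosen for having the most members, and 5.50% of all shared regions were members. Gse1 and Septin9 also had T1-higher regions. With ranks among shared regions some of their members had gaps below 15 points. These were at Kcnd3 (9.85), Gse1 (13.2), Rgs8 (14.4), Pard3b (14.0), Lmtk2 (6.17 and 13.5), Slc49a4 (11.4), Xxylt1 (9.53) and Tns1 (14.2). The members at B4galt5 and Septin9 kept at least 15 points. A second member lay within 50 kb of 489 members (20.1%), and a member lay within 50 kb of 20.7% of all shared regions. A T2-only region (peaks in both T2 and neither T1 library, 5364 in all) lay within 50 kb of 38.1% of members and of 37.1% of all shared regions, and a T1-only region within 15.6% and 16.0%. These shares differ by about 1 point or less between members and all shared regions.

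Across chromosomes members made up between 4.94% and 6.93% of the shared regions of each autosome. On the X chromosome they were 18 of 876 (2.05%, 95% Wilson interval 1.30 to 3.22), and 12 were T1-higher. Of all shared regions 5.50% were members and 1.46% were T1-higher. In the ranking among shared regions the X chromosome had 7 T2-higher and 32 T1-higher regions (0.799% and 3.65%, against 2.89% and 3.31% of all shared regions). The T1-higher share on X was thus near that of all shared regions. The Elf4 member (chrX:48444812-48445183), inside the gene of an ETS factor, stood at 20.7 and 13.6 in T1 and 53.6 and 43.2 in T2. The Y chromosome had 6 shared regions, of which 2 were members (33.3%, 95% Wilson interval 9.68 to 70.0). With ranks among shared regions 1 of them was T2-higher and 1 T1-higher.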

How the data were processed

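ATAC-seq peak lists of 4 MPP3 libraries (T1 and T2, 2 each, grouped by their titles) were used. Per the submitters' processing notes, the authors used Bowtie2, SAMtools and MACS2 on mm10. Their versions and filters, and any merging of replicates, are not stated in the labels. The deposited fold is a ratio of the summit to local background, the deposited −log10 p and −log10 q give significance, and the deposited score is 10 times the −log10 q without decimals for nearly all peaks. Each peak name carries the name of 1 library. No read counts were used, so depth is unknown, no count model was fitted, and intervals cover counts of regions only.

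Members and lists were chosen with earlier results of these data known. Ties took mean ranks. Genes came from RefSeq (GRCm38.p6), whose gene table gives no strand, start sites from its promoter table, and 482 of 484 list genes matched. Named were Bcl11a, the 25 largest gaps (1 per gene), up to 4 genes per list and the 10 genes with most members, and chromosome 18 and predicted models were left out of the names. Single results for 2 genes the rule selects are not reported here, and they remain in every count of members. Other list genes were named after their values were seen. Motifs were searched only in promoters, since no genome was used here. The procedure was tested on simulated lists. Alternatives covered ranking, filters, thresholds, joining and each library. Python 3.11.15, pandas 2.3.3, scipy 1.17.1 and statsmodels 0.14.6 were used.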

Additional observations from a re-analysis of the deposited data

How the results depend on the processing

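The number of members (2437) stayed within 1.5 times with ranks by −log10 p or fold, peaks of −log10 q of at least 5 or 10, 1 peak per library, overlapping best peaks and windows around summits, but fewer were the same regions: 1706 members were called again by fold, 2191 with −log10 q of at least 5 and 1297 (53.2%) with at least 10. The number was 1278 with ranks among shared regions, 1042 at equal list length, 4855 and 1168 with gaps of at least 10 and 20 points, 6733 by group means, and 3894 to 6798 when 1 library was left out (6798 without T1 replicate 1, 4953 without T1 replicate 2, 3894 without T2 replicate 1 and 5138 without T2 replicate 2), because 1 library then decides for its group. In the same order T1-higher regions numbered 1466, 1360, 1169, 362, 1654 and 1046 to 1814, against 647, and 431 with −log10 q of at least 10. The share of members at gene ends (13.7%) was 15.3% with −log10 q of at least 10, 15.3% and 12.1% with gaps of 10 and 20 points, 15.6% by group means, 13.2% to 16.4% without 1 library, 11.6% and 18.1% with windows of 500 and 2000 bp, and 7.67% for start sites inside the region, a setting chosen after seeing the data. The share of members near list genes (3.82%) was 2.79% within 10 kb. Of the 1820 shared regions near list genes 93 were members (5.11%, against 5.50% of all shared regions). Of the 125 named regions reported here, 125 kept a gap above 0 with ranks among shared regions (92 of at least 15 points), as did the 114 that could be measured at equal list length (77 of at least 15 points). Both settings rank the same −log10 q values that chose these regions, so a reversal was unlikely from the start. The replicate numbers are not known to pair the libraries (correlation of replicate differences 0.0187). With a replicate block, a gap of 15 points in each same-numbered pair, 3496 regions were T2-higher and 871 T1-higher. Read depth limits weak peaks and is unknown.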
